A study of Mus musculus with 7 samples.

Results

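The genes described are those of the corticotropin-releasing hormone (CRH) system and the corticosteroid receptors: the ligands Crh, Ucn and Ucn3, the binding protein Crhbp, the receptors Crhr1 and Crhr2, the steroid receptors Nr3c1 and Nr3c2, and the enzyme Hsd11b1. Every probe set that the array annotation ties to one of these symbols alone was taken, which gave 16 probe sets for 9 of the 18193 genes on the array. Nr3c1 has 6 of them, Crhr1 and Crhr2 have 2 each, and 6 genes have 1. Their values come from 7 Affymetrix mouse430_2 arrays of hypothalamus dissected at 3 months of age. Of these, 3 are from Creb-PomcCre-/- mice (knockout below), in which Cre from the Pomc gene removes Creb, by the submitters' account in arcuate neurons, and 4 from wild-type mice. The labels do not say whether wild-type mice carried Cre or a floxed allele. Each array is labelled a biological replicate, and whether it holds 1 mouse or a pool is not given.

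CRH is the peptide with which the brain starts the hormonal stress response. Neurons of the paraventricular nucleus release it to the pituitary, where CRHR1 raises cyclic AMP in corticotrope cells and ACTH, cut from the Pomc product, is secreted. The adrenal gland answers with glucocorticoids, which return to the brain and act through the receptors encoded by Nr3c1 and Nr3c2, lowering Crh in the paraventricular nucleus. Creb1 encodes a transcription factor activated by cyclic AMP, and Crh is a textbook gene with a cyclic AMP response element. Pomc-driven Cre is known to act in arcuate neurons and in pituitary corticotropes, whereas Crh neurons lie mainly in another nucleus. The study sought genes downstream of Creb in neurons that control appetite, and the comparison here asks how levels of these genes in the whole hypothalamus differ between knockout and wild type.

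The tissue label was checked with markers. Of 14 hypothalamus markers 13 had a probe set of their own and mean log2 levels between 5.66 and 13.79, and 11 of the 13 were higher in the knockout. Marker scores are the median over a list of each gene's log2 value minus its mean over the 7 arrays. Meningeal scores were -0.42, -0.24 and -0.42 in the knockout arrays and -0.38, 0.45, 1.21 and -0.31 in the wild-type arrays, so wild-type arrays 2 and 3 stood apart. Thalamic scores were -0.16, -0.16 and 0.09 in the knockout and -0.15, 0.54, -0.18 and 0.13 in wild type. Hypothalamus scores were 0.14, 0.07 and -0.04 in the knockout and 0.16, -0.27, -0.02 and -0.03 in wild type. Wild-type array 2 was thus the lowest of all arrays and wild-type array 1 the highest. The part of this spread in the member values was not tested. Sex is not in the labels. Xist, the RNA of the inactive X chromosome, was high in knockout array 1 and wild-type arrays 1 and 4, with means between 9.75 and 10.10. It was low in the other 4 arrays, at 4.13 to 4.42. Wild-type arrays 2 and 3 were thus both low in Xist and the highest in meningeal score, and the 2 features cannot be told apart within wild type.

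None of the 16 probe sets passed an adjusted p of 0.05 over the 45037 probe sets tested (limma, Benjamini-Hochberg), a threshold passed by 3 probe sets or 0.00666% of all. An unadjusted p under 0.05 was reached by 3 of them, those of Ucn, Crhbp and Hsd11b1, and all 3 were higher in the knockout. That is 18.8% of the members against 5.55% of all probe sets in that direction. On the lower side it was 0 of 16, against 5.07%. In the 16 probe sets 10 differences were above 0, with a median log2 difference of 0.06, against 53.2% and a median of 0.01 over all probe sets. The groups overlapped for all 16. Over all probe sets, every knockout array lay above every wild-type array for 6.02% and below for 5.02%, 11.0% together. The count of 3 depended on single arrays: leaving out wild-type array 2 gave 0, wild-type array 3 or knockout array 2 gave 1, and wild-type array 1 gave 5.

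**Figure D1:**
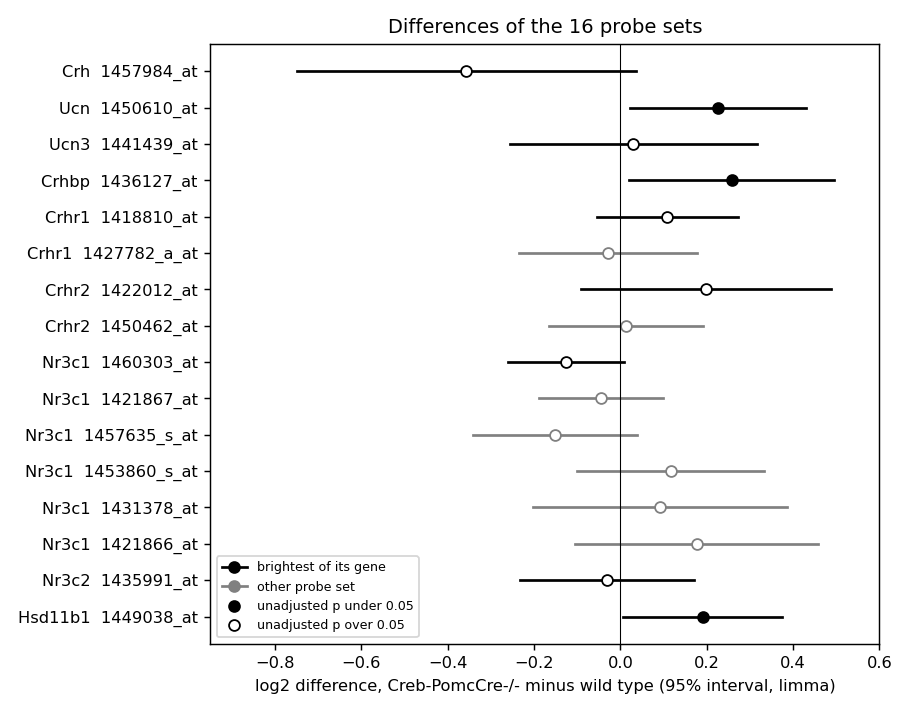
Log2 difference, Creb-PomcCre-/- minus wild type, of the 16 probe sets with limma's 95% interval, with 3 knockout and 4 wild-type arrays. Filled points have an unadjusted p under 0.05 (Ucn, Crhbp and Hsd11b1), and the Crh interval is the widest, from -0.75 to 0.04.

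Crh, the hormone itself, had log2 levels of 8.61, 8.03 and 8.60 in the knockout arrays, against 8.56, 8.98, 9.03 and 8.52 in the wild-type arrays. Knockout array 2 was the lowest of all, and wild-type arrays 2 and 3 were the highest. The other 4 arrays, of both genotypes, lay within a narrow band between them. The mean was 8.41 ± 0.33 (SD, n = 3) in the knockout and 8.77 ± 0.27 (SD, n = 4) in wild type, a difference of -0.36 ± 0.17 (SE) or 0.78-fold, which missed the threshold (limma, adjusted p = 0.505). Its 95% interval runs from 0.59-fold to 1.03-fold. Leaving out each array in turn gave differences between -0.45 and -0.17, the smallest when knockout array 2 was dropped. Dropping both wild-type arrays 2 and 3 gave -0.12. Even had the difference passed, fewer Crh neurons and less Crh RNA per neuron could not be told apart in whole tissue.

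That difference was seen in the arrays low in Xist, where knockout array 2 read 8.03 and knockout array 3 read 8.60. In wild type the arrays low in Xist are also those with the highest meningeal scores. Among arrays low in Xist Crh averaged 8.32 in 2 knockout arrays and 9.01 in 2 wild-type arrays, a difference of -0.69. Among the arrays high in Xist it was 8.61 in a single knockout array and 8.54 in 2 wild-type arrays, a difference of 0.07. The difference between the 2 differences was -0.76 ± 0.26 (SE) and missed the threshold (limma interaction, adjusted p = 1.000). By that test 0 of 45037 probe sets passed (0%) and 3.97% had an unadjusted p under 0.05. Markers of the paraventricular nucleus and its magnocellular neurons were not ordered like Crh. Of 8 such markers 4 were higher and 4 lower in the knockout, with scores of -0.04 to 0.05 in the knockout and -0.13 to 0.17 in wild type. The meningeal score was highest in wild-type array 3 and next highest in wild-type array 2, the arrays with the most Crh. In the other arrays it did not follow Crh: knockout array 2, lowest in Crh, came next with -0.24, and knockout arrays 1 and 3 had the lowest scores. The thalamic score was highest in wild-type array 2 and above 0 also in knockout array 3 and wild-type array 4. Of 14 meningeal markers 12 were lower in the knockout, with mean levels of 6.28 to 6.76 in the knockout and 6.35 to 8.14 in wild type. Of 12 thalamic markers 8 were lower in the knockout, with mean levels of 8.18 to 8.70 in the knockout and 8.10 to 9.19 in wild type. No marker is at 0 on this scale, and the dimmest of these, Pou4f1, averaged 3.71 in the knockout and 3.44 in wild type. The part of these tissues in the Crh difference was not tested.

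**Figure D2:**
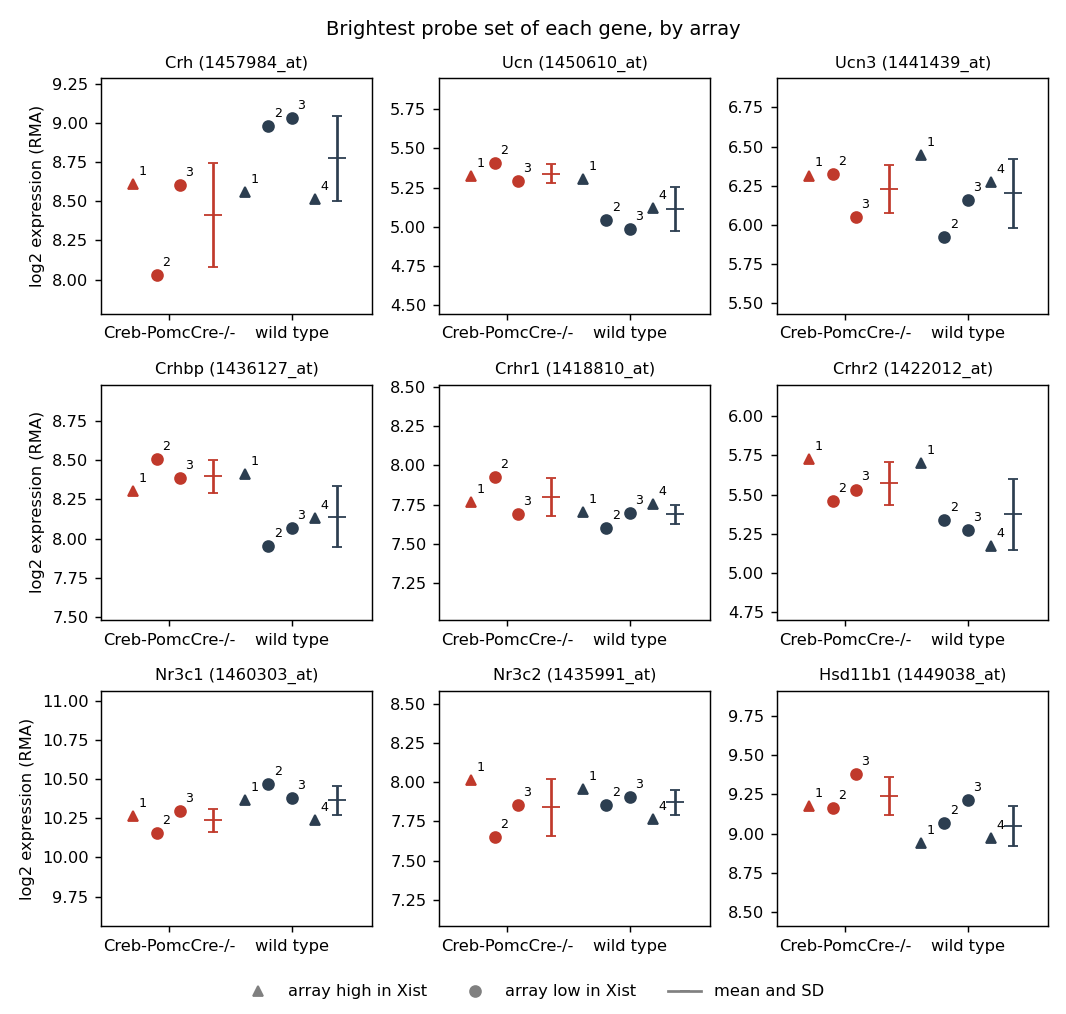
Log2 expression on each array for the brightest probe set of the 9 genes, Creb-PomcCre-/- left and wild type right, with the array number beside each point and bars for mean and SD (n = 3 and n = 4); every panel spans the same log2 range. Triangles are arrays high in Xist and circles arrays low in Xist. Crh is spread most, with knockout array 2 at 8.03 and wild-type array 3 at 9.03, and the groups overlap in all panels.

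Ucn encodes urocortin, a CRH-related peptide that binds both receptors and is made chiefly by Edinger-Westphal neurons of the midbrain. Of the 7 members whose RefSeq promoter window was searched, Ucn is the only one that holds a complete cyclic AMP response element. Its 250 upstream bases (GRCm38.p6, chr5:31138896-31139145, minus strand, shown 5′ to 3′) carry TGACGTCA at 44 to 37 bases before the start, in capitals below. Both strands of each window were searched for TGACGTCA, for its 5-base part TGACG, and for TGTTCT, part of the glucocorticoid response element. The full element reads the same on both strands and contains TGACG on each. It occurs in 1.55% of 32851 mouse windows of that length, TGACG in 17.8% and TGTTCT in 16.1%. Crhbp is the other member with TGACG, once, on the reverse strand (as CGTCA, in capitals) at 64 to 60 bases before its start, in chr13:95444832-95445081 on the minus strand. Ucn alone holds TGTTCT, at 54 to 49 bases before the start. The windows of Ucn3, Crhr1, Crhr2, Nr3c2 and Hsd11b1 held none of these letters. A single window was read for each gene, and other starts of a gene were not searched. The windows of Crhr1, Nr3c2 and Hsd11b1 lie within the annotated bounds of their genes. Crh and Nr3c1 were not searched. Both sequences are from RefSeq and are shown because these are the members with the CREB motif letters; a match is a string of letters and says nothing of binding.
Ucn: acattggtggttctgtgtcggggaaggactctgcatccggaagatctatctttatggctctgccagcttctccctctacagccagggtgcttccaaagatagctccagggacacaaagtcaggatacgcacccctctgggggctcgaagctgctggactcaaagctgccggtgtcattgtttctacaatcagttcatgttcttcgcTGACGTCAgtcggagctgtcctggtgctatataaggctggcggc
Crhbp: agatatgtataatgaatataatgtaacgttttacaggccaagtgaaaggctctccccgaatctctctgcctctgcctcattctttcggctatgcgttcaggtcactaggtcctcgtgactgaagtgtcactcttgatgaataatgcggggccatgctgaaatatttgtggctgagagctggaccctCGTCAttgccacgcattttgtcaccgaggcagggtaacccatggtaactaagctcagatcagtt

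Ucn had log2 levels of 5.32, 5.41 and 5.29 in the knockout arrays, against 5.31, 5.04, 4.99 and 5.12 in the wild-type arrays. Wild-type array 1 lay among the knockout arrays and the other 3 wild-type arrays lay below all of them. The mean was 5.34 ± 0.060 (SD, n = 3) in the knockout and 5.11 ± 0.14 (SD, n = 4) in wild type, a difference of 0.23 ± 0.090 (SE) or 1.17-fold, which missed the threshold (limma, adjusted p = 0.435). The probe set is dim, at the 35.7th percentile of all probe sets by level, and no detection call separates it from background. The difference was above 0 with each array left out, from 0.18 to 0.29, and was 0.13 when wild-type arrays 2 and 3 were dropped together. It was 0.33 among arrays low in Xist and 0.11 among arrays high in Xist, with a single knockout array in the second set.

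Ucn3 encodes urocortin 3, a ligand of CRHR2 made in the perifornical area of the hypothalamus and in the medial amygdala. Its levels were 6.32, 6.32 and 6.05 in the knockout arrays, against 6.45, 5.92, 6.16 and 6.28 in wild type. The knockout values lay within the wider wild-type range. The difference was 0.03 ± 0.13 (SE), with an interval from 0.84-fold to 1.24-fold (limma, adjusted p = 0.949), and -0.13 when wild-type arrays 2 and 3 were dropped. Another probe set is annotated as Ucn2, the remaining urocortin, yet the RefSeq table gives its accession to Ucn3. It is therefore no member and is uncertain as a measure of either gene. It differed by 0.01 ± 0.078 (SE), from a level of 5.28 in the knockout and 5.27 in wild type (limma, adjusted p = 0.972).

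Crhbp encodes a secreted protein that binds CRH and urocortin and keeps them from their receptors. Its levels were 8.30, 8.51 and 8.38 in the knockout arrays, against 8.41, 7.95, 8.07 and 8.13 in wild type. As with Ucn, wild-type array 1 lay among the knockout arrays and the other 3 wild-type arrays below them. The mean was 8.40 ± 0.11 (SD, n = 3) in the knockout and 8.14 ± 0.20 (SD, n = 4) in wild type. The difference of 0.26 ± 0.10 (SE), or 1.20-fold with an interval from 1.01-fold to 1.41-fold, was short of the threshold (limma, adjusted p = 0.443). Dropping wild-type array 1 gave 0.35, dropping wild-type array 2 gave 0.19, and dropping arrays 2 and 3 of wild type together gave 0.13. Among arrays low in Xist the difference was 0.44, with 8.45 in 2 knockout arrays and 8.01 in 2 wild-type arrays. Among arrays high in Xist it was 0.03, with a single knockout array.

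Across arrays, Crh stood opposite to its binding protein and to Ucn. Knockout array 2 had the least Crh and the most Crhbp and Ucn of the 7. Wild-type arrays 2 and 3 had the most Crh and the least Crhbp and Ucn. The brightest probe set of Nr3c1 had the same extremes as Crh in part, highest in wild-type array 2 and lowest in knockout array 2. The brightest of Crhr1 had the reverse ones. Over the 16 probe sets, knockout array 2 was the highest array for 5 and the lowest for 5, and wild-type array 2 the highest for 2 and the lowest for 4. This is the order of single arrays within each gene, a description with no test.

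**Figure D3:**
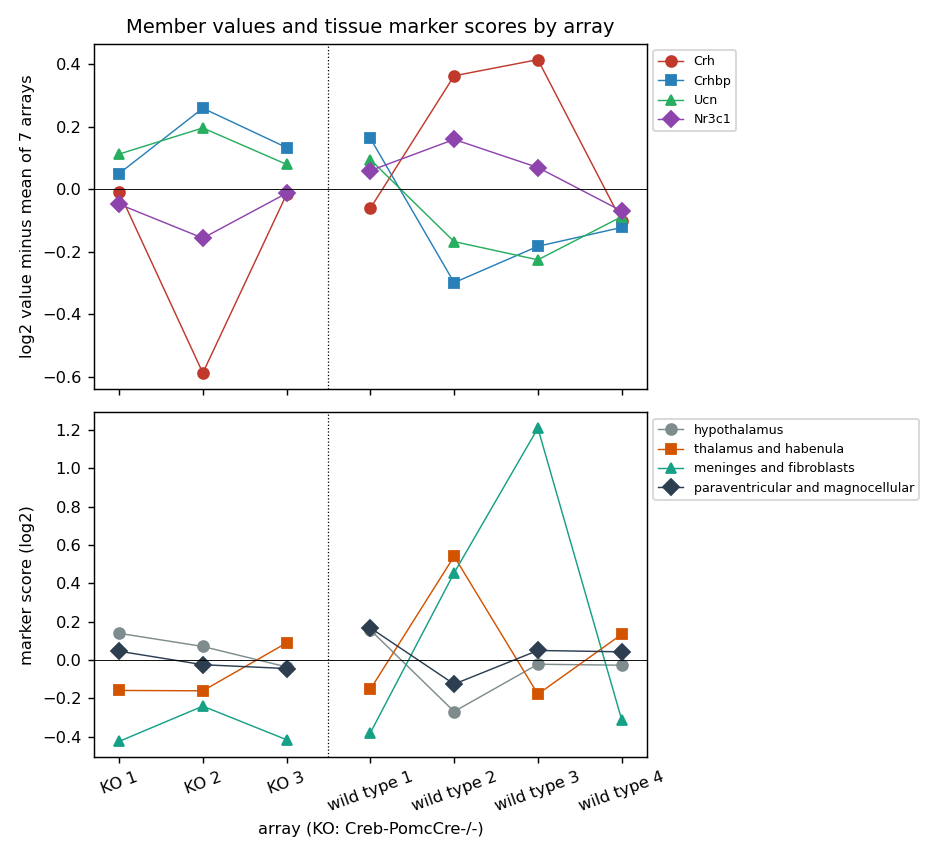
Upper panel, log2 value minus the gene's mean over 7 arrays for the brightest probe sets of Crh, Crhbp, Ucn and Nr3c1; lower panel, marker scores (log2) of 4 tissue lists on the same arrays, Creb-PomcCre-/- arrays left of the dotted line and wild type right, lines joining arrays of 1 genotype only to guide the eye. Crh is lowest in knockout array 2 and highest in wild-type arrays 2 and 3, where Crhbp and Ucn are lowest; meningeal scores reach 0.45 and 1.21 in those 2 wild-type arrays.

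CRHR1 is the receptor through which CRH and urocortin raise cyclic AMP. The brighter of its probe sets had levels of 7.77, 7.93 and 7.69 in the knockout arrays, against 7.70, 7.60, 7.70 and 7.75 in wild type. Knockout arrays 1 and 2 lay above all wild-type arrays, and knockout array 3 lay below all of them but array 2. The difference was 0.11 ± 0.072 (SE), with an interval from 0.96-fold to 1.21-fold (limma, adjusted p = 0.613). Dropping knockout array 2 left 0.04, and dropping wild-type arrays 2 and 3 left 0.07. The other probe set averaged 5.81 in the knockout and 5.84 in wild type, a difference of -0.03 ± 0.091 (SE). Crhr1 is also a gene of pituitary corticotropes. Of 8 pituitary markers 6 were higher in the knockout, with mean levels of 5.63 to 5.84 in the knockout and 5.08 to 5.89 in wild type. The largest differences of that list were in Tshb, the thyrotropin beta subunit gene, at 7.45 in the knockout and 5.63 in wild type, and Cga, the common glycoprotein hormone alpha subunit gene, at 9.33 in the knockout and 8.34 in wild type, neither past the threshold (limma over genes, adjusted p = 0.343 for Tshb). Wild-type array 1 lay among the knockout arrays for Tshb, at 7.54, and was the highest of all arrays for Cga, at 10.11. The other hormone genes of the list were dimmer than these, and their directions were mixed. Gh averaged 5.78 in the knockout and 5.77 in wild type, and Prl 4.12 in both. Lhb averaged 4.91 in the knockout and 5.08 in wild type, and Fshb 3.37 and 3.16. The pituitary transcription factor gene Pitx1 averaged 5.37 in the knockout and 5.28 in wild type. Tbx19, the transcription factor of corticotropes, averaged 5.45 in the knockout and 5.43 in wild type. The part of pituitary tissue in the Crhr1 values was not tested.

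CRHR2 binds the urocortins and is known from the ventromedial nucleus and from choroid plexus. The brighter Crhr2 probe set read 5.73, 5.46 and 5.53 in the knockout arrays, against 5.70, 5.34, 5.28 and 5.18 in wild type. Wild-type array 1 was again high, and the other 3 wild-type arrays lay below all knockout arrays. The difference of 0.20 ± 0.13 (SE) was not past the threshold (limma, adjusted p = 0.604). Dropping wild-type array 1 gave 0.31 and dropping knockout array 1 gave 0.12. The other, dimmer probe set averaged 4.65 in the knockout and 4.64 in wild type, and its difference of 0.01 ± 0.079 (SE) turned to -0.01 after quantile normalization. Both probe sets were made from the same sequence record. Of 7 ventromedial markers 6 were higher in the knockout, with scores of 0.06 to 0.10 in the knockout and -0.25 to 0.13 in wild type. Of 9 choroid plexus markers 6 were lower, with scores of -0.13 to -0.03 in the knockout and -0.09 to 0.07 in wild type. Their part in the Crhr2 values was not tested.

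Nr3c1 encodes the glucocorticoid receptor, a hormone-activated transcription factor present in most cells, and it is the member measured most often. Its brightest probe set read 10.26, 10.15 and 10.30 in the knockout arrays, against 10.37, 10.47, 10.38 and 10.24 in wild type. Only wild-type array 4 reached down into the knockout range. The mean was 10.24 ± 0.075 (SD, n = 3) in the knockout and 10.36 ± 0.094 (SD, n = 4) in wild type, a difference of -0.13 ± 0.060 (SE) or 0.92-fold, which missed the threshold (limma, adjusted p = 0.493). Its interval from 0.83-fold to 1.01-fold is the narrowest of the 16. The other 2 bright probe sets differed by -0.04 ± 0.064 (SE) and -0.15 ± 0.084 (SE). The size of these differences depended on the arrays kept. Dropping each array in turn gave -0.17 to -0.08 for the brightest, and all 3 bright probe sets kept their sign. Dropping wild-type arrays 2 and 3 together brought the brightest to -0.07. Dropping knockout array 1 brought the smaller of the other 2 differences to -0.11, and dropping knockout array 2 brought the larger to -0.06. The 3 dim ones, at levels near 4 to 5, differed by 0.09 to 0.18. Bright and dim probe sets of Nr3c1 thus had opposite signs, and their mean differed by 0.01 ± 0.061 (SE). Over all probe sets the median difference was 0.03 in the dimmest and -0.01 in the brightest of 3 equal bins by level, which runs in the same directions and is smaller. None of the 6 passed.

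Nr3c2 encodes the mineralocorticoid receptor, which binds corticosterone with higher affinity and is known best from hippocampal neurons. Its levels were 8.01, 7.65 and 7.85 in the knockout arrays, against 7.96, 7.86, 7.90 and 7.77 in wild type. Knockout arrays held both the highest and the lowest value. The difference was -0.03 ± 0.089 (SE), with an interval from 0.85-fold to 1.12-fold (limma, adjusted p = 0.921). Dropping knockout array 2 turned it to 0.06. Of 10 markers of cortex, hippocampus, striatum and amygdala 5 were higher and 5 lower in the knockout.

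Hsd11b1 encodes the enzyme that regenerates active glucocorticoid from its inert keto form inside cells. Its levels were 9.17, 9.16 and 9.38 in the knockout arrays, against 8.94, 9.07, 9.22 and 8.97 in wild type. Wild-type array 3 exceeded 2 of the knockout arrays, and the other wild-type arrays lay below all 3. The mean was 9.24 ± 0.12 (SD, n = 3) in the knockout and 9.05 ± 0.12 (SD, n = 4) in wild type. The difference of 0.19 ± 0.081 (SE), or 1.14-fold with an interval from 1.00-fold to 1.30-fold, missed the threshold too (limma, adjusted p = 0.457). Dropping knockout array 3 gave 0.12. It was 0.13 among arrays low in Xist and 0.22 among arrays high in Xist, and 0.28 when wild-type arrays 2 and 3 were dropped. No comparison between the classes passed for any member.

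The members also differed in how steady they were among wild-type arrays. The wild-type SD of Crh was at the 95.9th percentile of all probe sets, those of the brighter Crhr2 probe set and of Ucn3 at the 93.5th and 92.8th, and that of Crhbp at the 90.1st. The brighter Crhr1 probe set was at the 27.9th and Nr3c2 at the 42.6th. Genes with the pattern nearest to a member over the 7 arrays were found by the root mean square difference of centred log2 values. For Crh they were Tmem215 at 0.12, Gm38910 at 0.13 and Il6st, the shared receptor subunit of interleukin-6 cytokines, at 0.13. For Crhr2 they were Kcnv2, Il18 and Cyb5r1, at 0.05 to 0.06, and for Crhbp 9530026P05Rik, Thoc2l and Septin14, at 0.04 to 0.06. For Ucn3 they were Gpr83, the ventromedial transcription factor gene Fezf1 and 1700011L22Rik, at 0.04 to 0.05. With 18193 genes to choose from, such likeness is a description.

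Genes that work with the members were read from 3 lists, 1 probe set a gene. None of their genes passed over all genes, where 2 or 0.0110% did. Of 20 CRH axis partners 11 were higher, with a median of 0.00. At an unadjusted p under 0.05, where 5.60% of all genes were higher and 6.12% lower, 1 was higher and 1 lower. Gnas, the stimulatory G protein through which both CRH receptors act, averaged 13.57 in the knockout and 13.67 in wild type. Every knockout array lay below every wild-type array, as for 6.05% of all genes (6.09% the other way, 12.1% together). The difference was -0.11 ± 0.021 (SE; limma, adjusted p = 0.207). Its other probe sets differed by -0.53 to 0.01. Adcyap1, which encodes the peptide PACAP, differed by 0.28 ± 0.11 (SE), the vasopressin receptor gene Avpr1a by 0.16 and the prohormone convertase gene Pcsk1 by 0.27. Avp, with which parvocellular neurons act beside CRH, had mean levels of 12.31 in the knockout and 12.26 in wild type.

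Of 18 chaperones, coregulators and steroid-handling genes 11 were higher, with a median of 0.02. At an unadjusted p under 0.05, where 6.12% of all genes were lower and 5.60% higher, 3 were lower and 0 higher. The same 3 of the 18 had every knockout array below every wild-type array, as for 6.05% of all genes. Both counts rest on the same values. Ncoa2 and Ncoa1, nuclear receptor coactivators, differed by -0.15 ± 0.044 (SE) and -0.09 ± 0.037 (SE), and the chaperone gene Hspa8 by -0.06 ± 0.021 (SE; limma, adjusted p from 0.284 to 0.387). Other probe sets of Ncoa2 and Ncoa1 went up to 0.16 and 0.11, and those of Hspa8 differed by -0.29 to -0.04. These genes, like Gnas, are bright. The upper quartile of all log2 values was 8.32 to 8.33 in the knockout arrays and 8.34 to 8.36 in the wild-type arrays. The part of that shift in these differences was not tested. Abcb1a, a drug exporter of the blood-brain barrier, differed by -0.16 ± 0.076 (SE). The lowest adjusted p of the list was that of Ncoa2.

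Of 22 glucocorticoid-induced genes 16 were higher in the knockout, against 51.5% of all genes, with a median of 0.08 against 0.00 for all genes. An unadjusted p under 0.05, reached by 11.7% of all genes, was reached in either direction by 0 of the 22. Their scores were spread widely over the arrays of each genotype, at -0.23, 0.04 and 0.32 in the knockout and -0.39, -0.11, 0.15 and 0.27 in wild type. Sgk1, a kinase gene induced by corticosteroids, read 11.05, 11.51 and 12.03 in the knockout, against 10.57, 11.01, 11.69 and 11.82 in wild type. Both arrays numbered 1 were the lowest of their genotype. Between same-numbered arrays, knockout minus wild type, the list score differed by 0.16, 0.15 and 0.16 and Sgk1 by 0.47, 0.50 and 0.34, all above 0. The labels do not pair arrays by number, and this leaves out wild-type array 4. Its list score of 0.27 and Sgk1 level of 11.82 exceeded those of knockout arrays 1 and 2. With the array number as a replicate block, over arrays 1 to 3, the list's median was 0.17 and none of its genes passed. In the unpaired fit the difference of Sgk1 was 0.26 ± 0.32 (SE). The cell cycle inhibitor gene Cdkn1a differed by 0.28, the transcription factor gene Klf9 by -0.16, the clock gene Per1 by -0.16 and the metallothionein gene Mt2 by 0.07. Its median turned to -0.05 when knockout array 3 was dropped and to -0.02 when wild-type array 1 was. It was 0.17 with wild-type array 4 or knockout array 1 dropped, 0.01 with wild-type array 2 and 0.13 with wild-type array 3. Among arrays low in Xist it was 0.18, and among arrays high in Xist, with a single knockout array, -0.19.

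**Figure D4:**
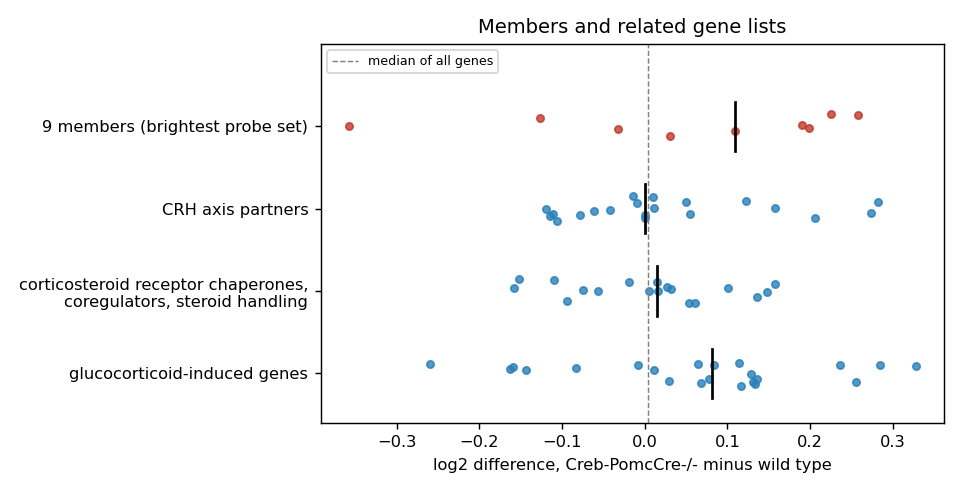
Log2 difference, Creb-PomcCre-/- minus wild type, of each gene (1 probe set a gene) for the 9 members and the 3 related lists; black bars are list medians and the dashed line is the median of all genes, 0.00. The glucocorticoid-induced genes have a median of 0.08, and the points are scattered vertically only for legibility.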

How the data were processed

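Biotin-labelled RNA of hypothalamus was hybridised to 7 mouse430_2 arrays. The authors deposited log2 values, 1 per probe set and array; per the submitters' processing notes the tools were R 2.10.0, affy and RMA. RMA as usually run makes intensity distributions equal over arrays and gives no detection call, so dim values cannot be told from background. The 64 control probe sets were left out and 45037 tested. Symbols came from the platform annotation; of those, 34945 probe sets had 1 symbol, 932 several and 9160 none. All 9 member genes were found in the RefSeq table of GRCm38.p6, which with its promoter windows served for names and sequences only. The annotation names no build.

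Knockout minus wild type was fitted with limma 3.58.1 in R 4.3.3 (lmFit, eBayes with intensity trend, two-sided) over all probe sets, or over 18193 genes with the brightest probe set for each, and adjusted by Benjamini-Hochberg at 0.05. Errors named SE are limma's, SDs are over arrays, and the number of arrays limits the precision. Replicates may vary technically as well as between animals. The code was tested on simulated data. Members, lists and tests were chosen with earlier results of these data known. Named genes were all members, up to 4 genes a list with the smallest unadjusted p, and the nearest patterns of the most spread members. Others were given as context and chosen after their values were seen: Avp, Sgk1, Tbx19, Tshb, Cga, Gh, Prl, Lhb, Fshb, Pitx1 and Pou4f1. Deviations from group means of same-numbered arrays of both genotypes had correlations of 0.26, 0.11 and 0.16. Arrays of unlike number were not compared, and same-numbered arrays also share their Xist class. Whether the numbers pair the arrays can therefore not be told. All values are from the unpaired fit of 3 against 4 arrays unless a replicate block is named. Of the genes in the 3 lists, 7 without a probe set of their own were not used. Figures used matplotlib 3.10.9 in Python 3.11.15.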

Additional observations from a re-analysis of the deposited data

How the results depend on the processing

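No member probe set passed an adjusted p of 0.05 under any alternative run, nor 0.1, and none of the listed genes did. The lowest adjusted p was 0.180, for Crhbp without wild-type array 1. Ucn, Crhbp, Hsd11b1 and the brighter Crhr1 and Crhr2 probe sets kept their direction in all 20 alternatives run on them. The dimmest of the bright Nr3c1 probe sets stayed lower in the knockout in all 18 of its alternatives. The dimmest of all Nr3c1 probe sets stayed higher in all 17 of its own. Several of these alternatives changed only the error estimate or the probe sets tested. Such runs leave the difference as it was and could not turn it. The replicate block over the arrays numbered 1 to 3 changed no call; there Crh was at -0.44, Ucn at 0.23 and Crhbp at 0.25, and the same arrays without the block are the fit without wild-type array 4. The count at an unadjusted p under 0.05 lay between 0 and 5 when single arrays were dropped and was 1 without wild-type arrays 2 and 3. Alternatives added after seeing the data were that one, both Xist classes alone and their interaction.

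Directions turned as follows. With the mean of its probe sets Nr3c1 was at 0.010, and the dimmer Crhr2 probe set at -0.011 after quantile normalization. The dimmer Crhr1 probe set was at 0.021 with the replicate block and at 0.067 in arrays low in Xist, where the brightest of the 3 dim Nr3c1 probe sets was at -0.0080. Without wild-type arrays 2 and 3, Ucn3 was at -0.13, the dimmer Crhr2 probe set at -0.058 and the middle one of the dim Nr3c1 probe sets at -0.036. In arrays high in Xist, with 1 knockout array, Crh was at 0.072, Ucn3 at -0.045, the dimmer Crhr2 probe set at -0.10, the second brightest Nr3c1 probe set at 0.10 and Nr3c2 at 0.15. With an array left out, ranges that crossed 0 were -0.063 to 0.12 for Ucn3, -0.026 to 0.22 for the middle one of the dim Nr3c1 probe sets, -0.034 to 0.042 for the dimmer Crhr2 probe set, -0.12 to 0.062 for Nr3c2 and -0.090 to 0.021 for the dimmer Crhr1 probe set. List medians moved beyond the spread between arrays without wild-type arrays 2 and 3, to -0.058 for CRH axis partners and -0.012 for the chaperone list, and to -0.027 for the chaperone list in arrays high in Xist. The glucocorticoid-induced median was 0.18 in arrays low in Xist, -0.19 in arrays high in Xist and 0.17 with the replicate block. The causes were not tested. Signal over background is unknown and limits the dim probe sets.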
